A study of Fragaria x ananassa with 21 samples.

Results

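Small RNAs of ripening strawberry receptacles were described over 3 days in fruit that had received water only. The members were the distinct mature sequences with at least 10 normalized reads in the library of day 0, 5 or 8, and 249 of the 1735 distinct sequences of the deposited small RNA table met this minimum. Of these, 106 carried the name of a known miRNA, with a prefix for a species that has it (mdm for apple, ppe for peach), and 143 were predicted by the authors from a genome match that can fold into a hairpin and are named PC. The groups were CK0, CK5 and CK8, receptacles of the octaploid strawberry Fragaria x ananassa 'Toyonoka' on day 0, 5 and 8. All of these fruits had 100 μL of distilled water injected into the receptacle core 2 weeks after anthesis, which was day 0, and the achenes were removed before freezing, so the libraries describe the receptacle without its seeds. The control fruit reached the initial red stage on day 8. RNA was extracted fruit by fruit from 10 fruits for a biological replicate, 3 such replicates of a group were pooled, and 1 small RNA library was made for each day. No value therefore measures the spread between fruits, no p-value was computed between days, and differences are given by size with an exact 95% interval that covers counting error only. Libraries of fruit injected with abscisic acid, or with nordihydroguaiaretic acid, a blocker of its synthesis, were not used here. The small RNA table holds no marker that defines receptacle tissue, so the tissue label could not be checked in it.

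Plant miRNAs are short RNAs cut from hairpin precursors, loaded into Argonaute proteins and paired with messenger RNAs, which are then mostly cut within the paired stretch. Many families are shared by flowering plants, and their best known targets are transcription factors that set organ identity, cell proliferation and the response to auxin. Other families act on nutrient uptake, copper proteins or disease resistance genes, and plant small RNAs of 24 nt are best known for guiding DNA methylation. In the deposited table each value holds the reads of 1 arm of a hairpin and is named after the leading sequence of that arm.

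The sequences on which the results turn are shown first, from 5′ to 3′ and written as DNA as in the table, with bases 2 to 8, the seed, in capitals. The first set holds the most abundant member, miR166, then miR164 and both arms of a miR408 hairpin, since these gave most of the reads. The known targets of miR166 are HD-ZIP III transcription factors, those of miR164 are NAC transcription factors, and those of miR408 are copper proteins.
mdm-miR166a: tCGGACCAggcttcattcccc
mdm-miR164b: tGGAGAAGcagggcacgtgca
mdm-miR408a_L-1R+1: tGCACTGCctcttccctggct
mdm-miR408b_1ss8AC: aCAGGGACgaggtagagcatg
The miR156 sequences are shown because this family held the most members that were higher after day 0. The first 3 share a seed, the next begins 1 base further along and the next begins before it, so that both have other seeds. The last 3 come from the opposite arm, and 2 of them carry predicted names only.
ppe-miR156c_L+1: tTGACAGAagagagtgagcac
mdm-miR156t_R+1_1ss15AT: tTGACAGAagagagtgagcacc
ppe-miR156f_L+1_1ss15AT: tTGACAGAagatagtgagcac
mdm-miR156a_R+1: tGACAGAAgagagtgagcaca
osa-MIR156j-p5: tGTTGACAgaagagagtgagc
osa-miR156j-3p_2ss9CT14T-: gCTCGCTCttcttctgtcagc
PC-3p-12760_352: gCTCGCTCttcttctgtcagca
PC-3p-4094_1077: tGCTCACTcttcttctgtcagc
Both arms of miR172 are shown because they moved together, and the miR395, miR319, miR167 and miR7125 sequences because each held a member that differed about 2-fold or more between 2 of the days.
mdm-miR172a_R+1: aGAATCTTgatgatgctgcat
ppe-miR172a-5p_3ss2TC12AC21GA: gCAGCATCatccagattcaca
lus-miR395a: cTGAAGTGtttgggggaactc
zma-miR319a-3p_R+1_1ss20CT: tTGGACTGaagggtgctcctt
mdm-miR319a_R-1_1ss20CT: tTGGACTGaagggagctcct
mdm-miR167b_L+1R-2: tTGAAGCTgccagcatgatc
mdm-miR167a_2ss8CG12CT: aGATCATGtggtagtttcacc
mdm-miR7125_1ss1CT: tGAACTTAttgcaactagctt
Of the predicted sequences, the most abundant one is shown with a nearby sequence that can pair with it and was predicted in an overlapping hairpin. A pair that lies in a miR169 locus and 4 overlapping sequences that were all lowest in CK5 follow.
PC-5p-86_29141: tCTACTCTctctcgaatggacc
PC-3p-4474_1001: tTGGAGAGagagtagacaatt
PC-3p-917_3142: aCAAGTCGtccttggttcacc
mdm-miR169c_L+1R-1_2ss2TG21CT: tGAGCCAAggatgacttgcct
PC-3p-20428_184: aAATTGAActtttgaaagcct
PC-3p-14985_285: tAAATTGAacttttgaaagcct
PC-3p-20041_189: tAAATTGAacttttgaaagcc
PC-3p-36668_75: cTAAATTGaacttttgaaagcc
The 249 members had 212 distinct seeds, and 25 seeds were shared by at least 2 members, 62 members in all. The seeds with the most members were those of miR156 and miR396, with 5 members each. Sequences that overlap or share a seed are not independent of each other, and 35 members lay whole inside another member or held one.

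The table held 239732 raw reads in CK0, 542485 in CK5 and 353648 in CK8, and the members took 99.5%, 99.4% and 99.1% of them. In the normalized reads 1 raw read counted 1.43 in CK0, 0.805 in CK5 and 0.738 in CK8, so that 3 reads stand for 4.30, 2.42 and 2.21 normalized reads. The miR166 family alone took 79.1% of the raw reads in CK0, 79.7% in CK5 and 67.5% in CK8. Thus 1 family dominated, and the scale of every value depended on the normalization. With the authors' normalization the median log2 ratio of all sequences measured was 0.44 in CK5 over CK0, 0.19 in CK8 over CK0 and -0.11 in CK8 over CK5. With the raw reads of the table scaled to equal totals, these medians were 0.09, 0.59 and 0.64. With totals made equal without miR166, they were 0.13, -0.04 and -0.04. Ratios are to be read against these medians.

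Most members were found on every day. All 3 libraries had reads for 239 of the 249 members, 130 members had at least 10 normalized reads in all of them, 41 in 2 of them and 78 in only 1. Of those 78, 22 reached the minimum only in CK0, 36 only in CK5 and 20 only in CK8. A member that reached the minimum in 1 library only had to be higher there, so counts over the members describe the table and support no direction. The 3 members just inside the minimum, PC-5p-60932_36, PC-3p-137109_13 and PC-5p-118523_15, had 10.0 normalized reads in CK0, which is 7 raw reads. The 3 just outside, PC-3p-131111_13, PC-3p-403696_4 and PC-3p-78069_25, had 9.66 normalized reads in CK5, which is 12 raw reads.

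By length, 126 of the 249 members were 21 nt long, 45 were 22 nt and 37 were 24 nt. All 37 members of 24 nt were predicted sequences, and 28 of them began with A. The 21 nt members began with T in 69 of 126 cases and the 22 nt members in 26 of 45. By normalized reads, the 21 nt members took 90.4% of the members' total in CK0, 92.0% in CK5 and 87.6% in CK8. Without the miR166 family these shares were 53.1%, 59.6% and 61.2%. The 24 nt members took only 0.626%, 0.735% and 0.660% of the reads without miR166. Of the 24 nt members, 22 were highest in CK5, 8 in CK8 and 7 in CK0, beside 100, 83 and 66 of all 249 members. Their medians lay near the minimum, at 8.61 normalized reads in CK0, 12.5 in CK5 and 8.85 in CK8. Membership could thus rest on CK5 alone, and the count supports no direction.

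**Figure D1:**
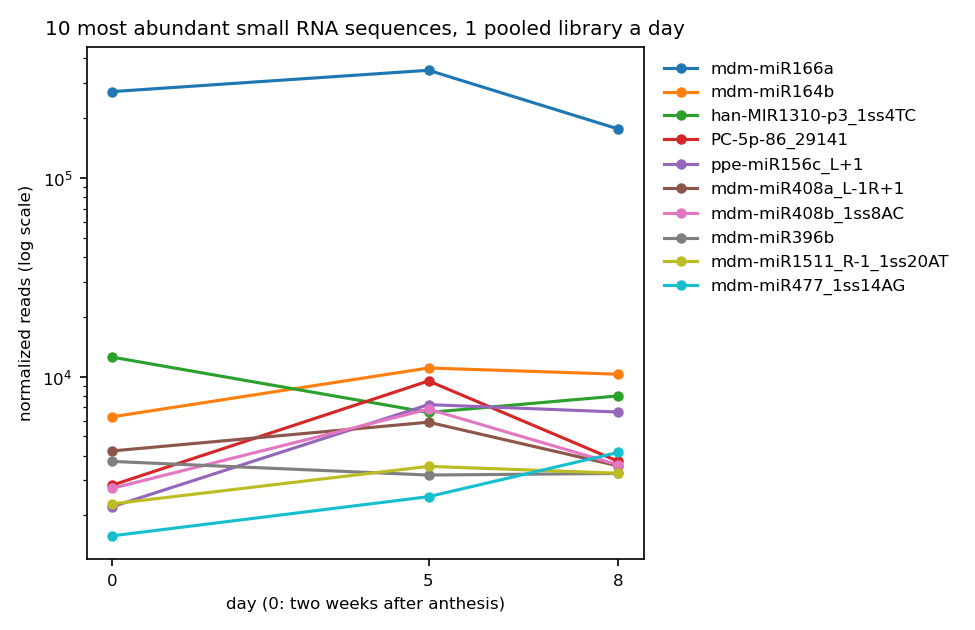
The 10 sequences with the highest mean, plotted as normalized reads (log axis) against day for the 1 library of each day. The line of mdm-miR166a lies between 176014 and 347516 normalized reads, far above the other 9, which lie between 1580 and 12514.

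Of the 10 most abundant members, 4 changed at least 2-fold in a comparison (PC-5p-86_29141, ppe-miR156c_L+1, mdm-miR408b_1ss8AC and mdm-miR477_1ss14AG). mdm-miR166a had 271485 normalized reads in CK0, 347516 in CK5 and 176014 in CK8. It was the most abundant sequence on each day and lowest in CK8, 1.97-fold lower than in CK5 (95% counting interval 1.96 to 1.98), just within the 2-fold rule. The size of this difference depended on the scale, which the interval does not cover. For the miR166 family the log2 ratio of CK8 over CK5 was -0.98 with the authors' normalization. It was -0.24 with the raw reads of the table scaled to equal totals. Its hairpin lies on the minus strand of linkage group 2, from 12452999 to 12453089, in the strawberry genome used by the authors, whose build is not given in the sources used here. mdm-miR164b had 6274, 11040 and 10270 normalized reads and mdm-miR1511_R-1_1ss20AT had 2287, 3532 and 3262. With the authors' normalization, both stayed within 2-fold in all comparisons. mdm-miR396b, of the family that acts on growth-regulating factors, had 3739, 3193 and 3253, within 2-fold in all comparisons. mdm-miR477_1ss14AG had 1580, 2486 and 4151 normalized reads, and CK8 was 2.63-fold above CK0 (2.46 to 2.81). The predicted PC-5p-86_29141 was the most abundant predicted sequence, with 2842, 9501 and 3743 normalized reads. It stood highest in CK5, 3.34-fold above CK0 (3.19 to 3.51), and CK8 was 2.54-fold below CK5 (2.46 to 2.62).

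The members named after miR1310 and miR2916 had a common course. han-MIR1310-p3_1ss4TC had 12514 normalized reads in CK0, 6595 in CK5 and 7992 in CK8. peu-MIR2916-p3_1ss10TC had 2416, 1090 and 1336, 2.22-fold lower in CK5 than in CK0 (2.06 to 2.38). All 5 members with these names were highest in CK0 and lowest in CK5. The hairpin lengths listed were only 29 bases for miR1310 and 32 bases for miR2916. The miR2916 arms listed overlap, at 19656637 to 19656656 and 19656655 to 19656673. Whether the reads with these names come from miRNA hairpins was not tested.

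By the size rule, a ratio of (normalized reads + 1) of at least 2 or at most 0.5 with at least 10 normalized reads in 1 of the libraries compared, CK5 held 57 of 229 sequences higher than CK0 (24.9%) and 39 lower (17.0%). In CK8 over CK0, 58 of 213 were higher (27.2%) and 28 lower (13.1%). In CK8 over CK5, 43 of 227 were higher (18.9%) and 56 lower (24.7%). The balance depended on the scale: with the raw reads of the table scaled to equal totals, 37 were higher and 55 lower in CK5 over CK0, 99 higher and 21 lower in CK8 over CK0, and 113 higher and 22 lower in CK8 over CK5, so that 2 of the 3 comparisons turned from one majority to the other. Of the members, 100 were highest in CK5, 83 in CK8 and 66 in CK0, and the median member differed 2.62-fold between its highest and lowest library. Both comparisons with CK0 share that library, and both with CK5 share that one, so the 3 counts are not independent. Predicted sequences were highest in CK5 in 64 of 143 cases, and named ones in 36 of 106.

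**Figure D2:**
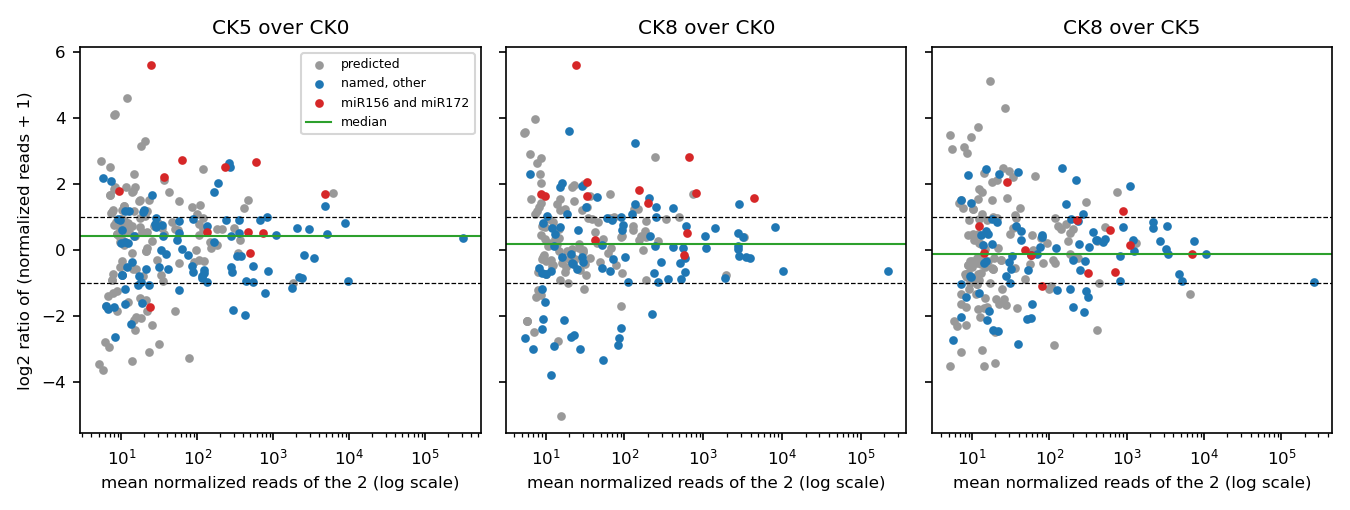
Log2 ratio of (normalized reads + 1) against the mean normalized reads (log axis) of the libraries compared, for CK5 over CK0, CK8 over CK0 and CK8 over CK5. Dashed lines mark 2-fold and the green line the median of all sequences measured (0.44, 0.19 and -0.11). The miR156 and miR172 members (red) lie mostly above the upper dashed line in CK8 over CK0.

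The miR156 and miR172 families act in sequence on the change from juvenile to adult growth in other plants, miR156 on SPL and miR172 on AP2-like transcription factors. In CK5 over CK0, 7 of 10 miR156 members measured were higher at least 2-fold and 1 was lower, beside 24.9% and 17.0% of all sequences. In CK8 over CK0, 8 of 11 were higher and none lower, with a median log2 ratio of 1.64 against 0.19 for all sequences. These members are not separate observations, since 5 of them share a seed and several overlap. Some reached the minimum only after day 0, such as mtr-miR156b-5p_L+1R+2 with 3.59, 14.9 and 14.0. The counts therefore describe the family and support no direction. Summed over its 11 members, miR156 had 3625 normalized reads in CK0, 10240 in CK5 and 9522 in CK8. In CK5 the sum was 2.82 times that of CK0 (2.71 to 2.95), and CK8 and CK5 lay within 2-fold of each other. The leading ppe-miR156c_L+1 had 2214, 7221 and 6626 normalized reads, 3.26-fold higher in CK5 than in CK0 (3.09 to 3.45). mdm-miR156t_R+1_1ss15AT had 161, 1037 and 1147 normalized reads, 6.42-fold higher in CK5 (5.32 to 7.90) and 7.10-fold higher in CK8 (5.89 to 8.73) than in CK0. ppe-miR156f_L+1_1ss15AT, which has the same seed, had 598, 857 and 540 and stayed within 2-fold. mdm-miR156a_R+1, with another seed, had 512, 483 and 739 and passed the rule in no comparison. osa-MIR156j-p5 had no read in CK0 and 48.3 and 47.9 normalized reads in CK5 and CK8, at least 11.2-fold and 11.1-fold above the 4.30 that 3 reads in CK0 would give. The only miR156 member at least 2-fold lower in CK5 than in CK0 was mtr-miR156h-3p_2ss6TC10TG, with 37.3, 10.5 and 46.5.

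Of the sequences on the 3′ arms of miR156 hairpins, some were higher in the later libraries, while mtr-miR156h-3p_2ss6TC10TG was 3.34-fold lower in CK5 than in CK0 (1.77 to 7.55). mdm-miR156t_R+1_1ss15AT and osa-miR156j-3p_2ss9CT14T- lie 43 bases apart on the minus strand of linkage group 3, from 5985893 to 5985978. osa-miR156j-3p_2ss9CT14T- had 67.4, 389 and 241 normalized reads, 5.70-fold higher in CK5 than in CK0 (4.27 to 7.96). PC-3p-4094_1077 lies on a hairpin that overlaps this one at its end, with a further copy on linkage group 3, and had 60.3, 156 and 434 normalized reads, 7.10-fold higher in CK8 than in CK0 (5.26 to 10.1). PC-3p-12760_352 had 30.1, 85.8 and 99.6. osa-miR156j-3p_2ss9CT14T-, PC-3p-4094_1077 and PC-3p-12760_352 were each lowest in CK0.

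miR172 was highest in CK8 on both arms. mdm-miR172a_R+1 had 379 normalized reads in CK0, 550 in CK5 and 1252 in CK8, 3.30-fold higher in CK8 than in CK0 (2.90 to 3.78) and 2.27-fold higher than in CK5 (2.08 to 2.49). Its opposite arm ppe-miR172a-5p_3ss2TC12AC21GA had 108, 158 and 295, 2.70-fold higher in CK8 than in CK0 (2.11 to 3.51). Both arms lie on the plus strand of linkage group 7, from 13952791 to 13952889. Between CK0 and CK5 neither arm passed the rule, so the miR156 sum was already above 2-fold in CK5 and the miR172 sum only in CK8, with no test of that difference. miR157 had at most 5.64 normalized reads and was no member.

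**Figure D3:**
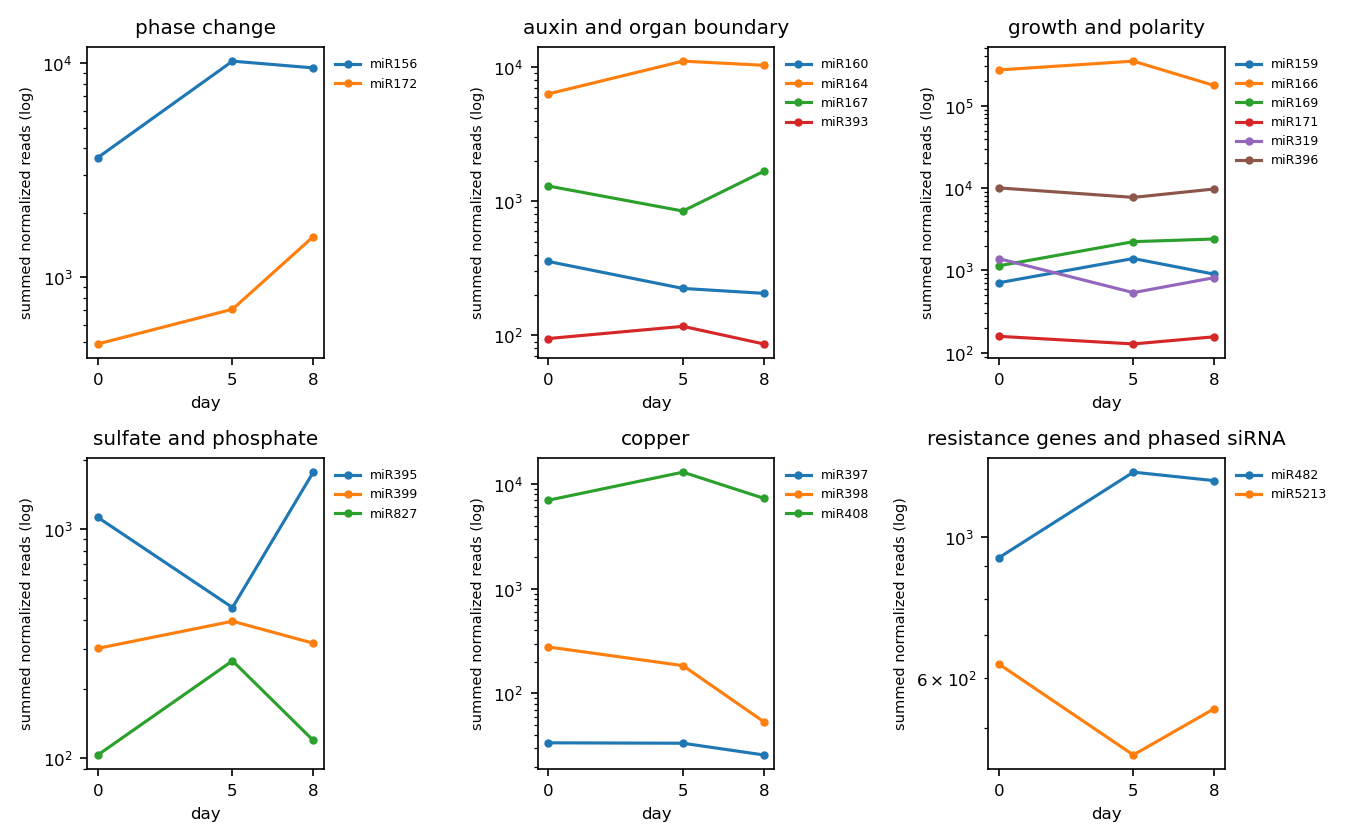
Summed normalized reads (log axis) of named families by role against day, 1 library a day. miR156 is at 3625, 10240 and 9522 normalized reads, miR172 at 487, 708 and 1546, miR395 at 1122, 454 and 1767 and miR398 at 278, 185 and 53.7.

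With the authors' normalization, families that act on auxin signalling and organ boundaries stayed within 2-fold in their sums between CK0 and CK5. With the median log2 ratio set to 0, miR160 was at -1.10 and miR167 at -1.06 in CK5 over CK0, past 2-fold lower. On that scale miR164 and miR393 stayed within 2-fold. miR164 summed to 6320, 11095 and 10332 normalized reads, and no comparison reached 2-fold with the authors' normalization. With the raw reads of the table scaled to equal totals, its log2 ratio in CK8 over CK0 was 1.11. miR160, whose targets are auxin response factors, summed to 356, 224 and 206, and CK8 was 1.73-fold below CK0 (1.45 to 2.06). miR393, which acts on auxin receptors, summed to 94.7, 117 and 86.3. miR167, which also acts on auxin response factors, summed to 1300, 846 and 1673, lowest in CK5. Its leading sequence mdm-miR167b_L+1R-2 had 1044, 676 and 1100. mdm-miR167a_2ss8CG12CT, the 3′ arm of another miR167 hairpin, had 25.1, 43.1 and 244, 9.39-fold higher in CK8 than in CK0 (5.89 to 16.2). The 5′ arm of that hairpin, mdm-miR167b_R+1_1ss21AC, had 178, 90.2 and 239. The miR167 3′ arms with a p3 suffix were also highest in CK8, ptc-MIR167c-p3 with 2.15, 6.85 and 37.6 and mdm-MIR167c-p3 with 5.74, 12.1 and 24.3. The 3′ arm aly-miR167b-3p had 12.9, 3.22 and 0.738. miR390 had at most 6.64 normalized reads. Of the 14 members of this role in CK5 over CK0, none was higher at least 2-fold and 2 were lower, beside 24.9% and 17.0% of all sequences. In CK8 over CK0, 5 of 16 were higher and 2 lower, beside 27.2% and 13.1%, and in CK8 over CK5 4 of 13 were higher and none lower, beside 18.9% and 24.7%.

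Among families that act on growth and polarity, miR319 and miR159, which act on TCP and MYB transcription factors, had their lowest and highest sums in CK5, miR319 with 1392, 538 and 817 and miR159 with 708, 1396 and 901 normalized reads. zma-miR319a-3p_R+1_1ss20CT, which was not matched to the genome, had 679 normalized reads in CK0, 171 in CK5 and 369 in CK8. It was 3.95-fold lower in CK5 than in CK0 (3.36 to 4.67). mdm-miR319a_R-1_1ss20CT, which was matched, had 713, 366 and 448, also lowest in CK5 but within 2-fold with the authors' normalization. lus-miR159b_R+2_1ss21CA, also not matched to the genome, had 541, 1083 and 567 and was highest in CK5, just within the 2-fold rule. miR396 summed to 10054, 7712 and 9750 over 8 members, and within it mtr-miR396a-3p_L-1_1ss20GC had 462, 130 and 252, 3.54-fold lower in CK5 than in CK0 (2.94 to 4.33). miR169, which acts on NF-YA transcription factors, summed to 1138, 2235 and 2408, with 5 of 8 members higher at least 2-fold in CK8 than in CK0, beside 27.2% of all sequences. Of these, ptc-miR169t_L+1R+1_1ss8AG had 80.3, 465 and 173, 5.73-fold higher in CK5 than in CK0 (4.40 to 7.77). miR171, which acts on GRAS family transcription factors, summed to 159, 128 and 156.

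Among the nutrient and copper families, miR395 was lowest and miR827 and miR408 were highest in CK5. miR395, which acts on sulfate uptake and assimilation, was led by lus-miR395a with 1111 normalized reads in CK0, 451 in CK5 and 1752 in CK8. It was 2.46-fold lower in CK5 than in CK0 (2.21 to 2.75) and 3.87-fold higher in CK8 than in CK5 (3.54 to 4.27). miR827, which acts on phosphate homeostasis, was highest in CK5, with mdm-miR827_1ss17GA at 74.6, 257 and 114 normalized reads. miR399, another phosphate family, summed to 301, 395 and 317 and did not pass the rule. miR408 summed to 7040, 13065 and 7346, highest in CK5. Its arms mdm-miR408a_L-1R+1, with 4224, 5892 and 3551, and mdm-miR408b_1ss8AC, with 2740, 6857 and 3592, lie on the minus strand of linkage group 1 between 12223082 and 12223168. In CK5, mdm-miR408b_1ss8AC stood 2.50-fold above CK0 (2.38 to 2.63). miR398, which acts on superoxide dismutase, summed to 278, 185 and 53.7, lowest in CK8, 5.10-fold below CK0 (3.93 to 6.86). None of the 4 miR398 members was matched to the genome. Most of the sum came from those named after tobacco and potato, and hbr-miR398_1ss3AT had 25.8, 16.9 and 19.2.

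miR7125 and miR477 each had a member past the rule. mdm-miR7125_1ss1CT had 70.3 normalized reads in CK0, 447 in CK5 and 120 in CK8, 6.28-fold higher in CK5 than in CK0 (4.74 to 8.70), and CK8 was 3.69-fold below CK5 (3.12 to 4.45). miR477 summed to 1608, 2511 and 4232. The resistance-gene families lay close to level, vvi-miR482_2ss10CT20TC with 918, 1255 and 1222 and mtr-miR5213-5p_2ss2AG5TA with 631, 453 and 536. mdm-miR858, of a family that acts on MYB regulators, had 330, 229 and 258. miR828, miR168 and miR535 had fewer than 10 normalized reads in all 3 libraries. miR162, which acts on Dicer, had 108, 66.8 and 92.9.

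Most of the sequences named after tobacco or potato that the authors could not match to the genome were lowest in CK8. Of these 13 unmatched members, 11 were lower in CK8 than in CK0 at least 2-fold and 1 was higher. Their median log2 ratio was -2.64, and the shares of all sequences were 13.1% and 27.2%. Some were members through CK0 alone, such as nta-miR6153 with 10.0, 2.42 and 0.738 and stu-miR7122-5p_R-1_1ss18TG with 23.0, 4.03 and 2.21. The group was set by name with earlier results known, so its counts support no direction. nta-miR1919_L-1 had 40.2 normalized reads in CK0, 37.0 in CK5 and 5.90 in CK8, nta-miR6146b had 151, 91.8 and 28.8, and stu-miR398a-3p had 98.2, 70.5 and 8.85. In CK8 over CK5, 8 of 10 measured were lower, beside 24.7% of all sequences, and in CK5 over CK0 4 of 13 were lower, beside 17.0%. The 1 higher in CK8 was stu-miR169c-3p_L+1_1ss18CT, with 305 in CK8 and 100 in CK0. htu-miR403a, also unmatched, had 48.8, 32.2 and 5.16 normalized reads. Other unmatched names, such as lus-miR395a and mdm-miR858, gave 5 of 18 higher and 3 lower in CK8 over CK0. Whether the unmatched reads came from the strawberry fruit was not tested, and the sequences named after tobacco and potato are not shown.

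Predicted sequences gave 38 of 127 higher and 23 lower in CK5 over CK0, and 31 and 11 of 111 in CK8 over CK0. These shares, 29.9% and 18.1% and then 27.9% and 9.91%, lay near those of all sequences, 24.9% and 17.0% and then 27.2% and 13.1%. PC-5p-86_29141 and PC-3p-4474_1001 lie 31 bases apart on the plus strand of linkage group 6, from 12165639 to 12165712, in predicted hairpins that overlap, and 15 of their bases can pair. Both were highest in CK5, and PC-3p-4474_1001 had 242, 689 and 128 normalized reads, 5.34-fold lower in CK8 than in CK5 (4.56 to 6.36). PC-3p-917_3142 lies on the minus strand of linkage group 4, from 6058665 to 6058685, within 76 bases of 1 copy of mdm-miR169c_L+1R-1_2ss2TG21CT and 135 bases of another. PC-3p-917_3142 had 351, 333 and 1140 normalized reads, 3.42-fold higher in CK8 than in CK5 (3.07 to 3.83). mdm-miR169c_L+1R-1_2ss2TG21CT had 146, 81.7 and 363, 4.40-fold higher in CK8 than in CK5 (3.56 to 5.52). The pair was thus highest in CK8 on both sides.

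Other predicted sequences had their lowest value in CK5. PC-3p-20428_184 had 141 normalized reads in CK0, 13.7 in CK5 and 42.8 in CK8, 9.64-fold lower in CK5 than in CK0 (6.10 to 18.3) and 3.23-fold lower in CK8 than in CK0 (2.35 to 4.63). It shares a run of 20 bases with PC-3p-14985_285, PC-3p-20041_189 and PC-3p-36668_75, which had 80.3, 21.7 and 108, 34.4, 8.86 and 50.9, and 25.8, 5.64 and 21.4 normalized reads. These 4 overlap, so their courses are not independent. PC-5p-27772_115 had 25.8, 1.61 and 50.9, with only 2 raw reads in CK5, and PC-5p-21298_173 had 55.2, 6.85 and 42.8. In contrast, PC-5p-3974_1102 had 35.9, 202 and 26.6 normalized reads, 5.51-fold higher in CK5 than in CK0 (3.73 to 8.88). PC-3p-118113_15, a 24 nt sequence, had no read in CK5 but 11.5 and 33.9 in CK0 and CK8. PC-5p-81451_24 had 31.6 and 10.5 in CK0 and CK5 and no read in CK8, at least 14.3-fold below CK0 by the floor of 3 reads.

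Across the genome, 40 pairs of members lay within 250 bases of each other on the same strand with at least 14 bases that could pair, and 65 members took part. These pairs describe the arms and share loci, so they are not independent. In CK5 over CK0 the arms had the same sign in 33 of 40 pairs, in CK8 over CK0 in 28 and in CK8 over CK5 in 29. The median log2 ratio of all sequences was 0.44 in CK5 over CK0, so unrelated sequences would also often share a sign. The sign of a small ratio depends on the scaling too, and no share for unrelated pairs is given beside these counts. In CK8 over CK0, 1 pair had 1 arm higher and the other lower at least 2-fold, PC-5p-26239_126 with 18.7, 65.2 and 47.9 normalized reads and PC-3p-57431_39 with 12.9, 27.4 and 1.48, and in CK5 over CK0 and CK8 over CK5 no pair did.

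The degradome, which holds the ends of transcripts cut in the plant, gave cleavage reads at sites assigned to members. Of 1537 rows of sites assigned to 111 members, 274 had reads in CK0, CK5 or CK8. These 274 rows fell in 129 components of the assembly, so the rows are not independent sites. The values are degradome reads scaled by the authors (TPB, in which 1 read with a single place counted 24.4 in CK0, 54.5 in CK5 and 43.1 in CK8). Among 35 sites of named families with at least 15 reads over the 3 libraries, in 17 families, 18 were lower in CK8 than in CK0 at least 2-fold and none was higher, with a median log2 ratio of -1.03, and 14 were lower and 1 higher in CK5 than in CK0. A given TPB took more reads in CK0 than in CK5 or CK8, so sites high in CK0 reached 15 reads more easily. These counts therefore support no direction. No share over all sites is given beside them, and no site was tested. The site with the highest TPB was assigned to miR393 in comp112242_c0_seq9, which the authors annotate with auxin binding and an SCF ubiquitin ligase complex. It had 2149 reads in CK0, 924 in CK5 and 1111 in CK8, 52429, 50368 and 47892 TPB, nearly level in scaled reads. The 2 sites of miR160 in transcripts annotated with auxin signalling and DNA binding were lower after day 0. comp117557_c0_seq21 had 5623, 1281 and 1487 TPB, 4.39-fold lower in CK5 than in CK0 (3.25 to 6.06), and comp100456_c1_seq1 had 4538, 981 and 1078. Their transcripts were also highest in CK0, with 15.6, 7.08 and 8.39 RPKM for comp117557_c0_seq21 and 2.41, 1.85 and 1.43 RPKM for comp100456_c1_seq1, and the part of this in the site values was not tested. miR160 itself also had its highest sum in CK0. The miR164 site of comp109189_c0_seq3 had 2110, 518 and 690 TPB, and its transcript 9.70, 5.22 and 6.18 RPKM, while miR164 summed higher in CK5 and CK8. comp107355_c0_seq11, annotated with formation of organ boundaries, had 1208, 1336 and 841 TPB, highest in CK5. The miR319 site of comp120317_c0_seq1 had 3562, 654 and 1207 TPB, lowest in CK5, and its transcript had 9.29, 2.79 and 3.00 RPKM. The other miR319 site, in comp109874_c2_seq2, had 1561, 1145 and 733 TPB and was lowest in CK8. The miR172 site of comp109158_c0_seq2 had 3196, 2289 and 2069 TPB, and its transcript had 3.62, 1.99 and 4.82 RPKM. All 4 miR172 sites were highest in CK0, while miR172 was highest in CK8. Of these sites, comp111498_c0_seq3 and comp116518_c0_seq2 are assigned to the opposite arm ppe-miR172a-5p_3ss2TC12AC21GA. The site of comp85990_c0_seq1 rests on 12, 4 and 6 reads. The miR156 site of comp119269_c0_seq4 had 586, 1254 and 280 TPB, highest in CK5, from 48, 46 and 13 reads. The other miR156 site, in comp119743_c0_seq1, is assigned to a 3′ arm, ppe-MIR156b-p3_1ss18CT. It had 488, 109 and 259 TPB, lowest in CK5, from 20, 2 and 6 reads. 

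**Figure D4:**
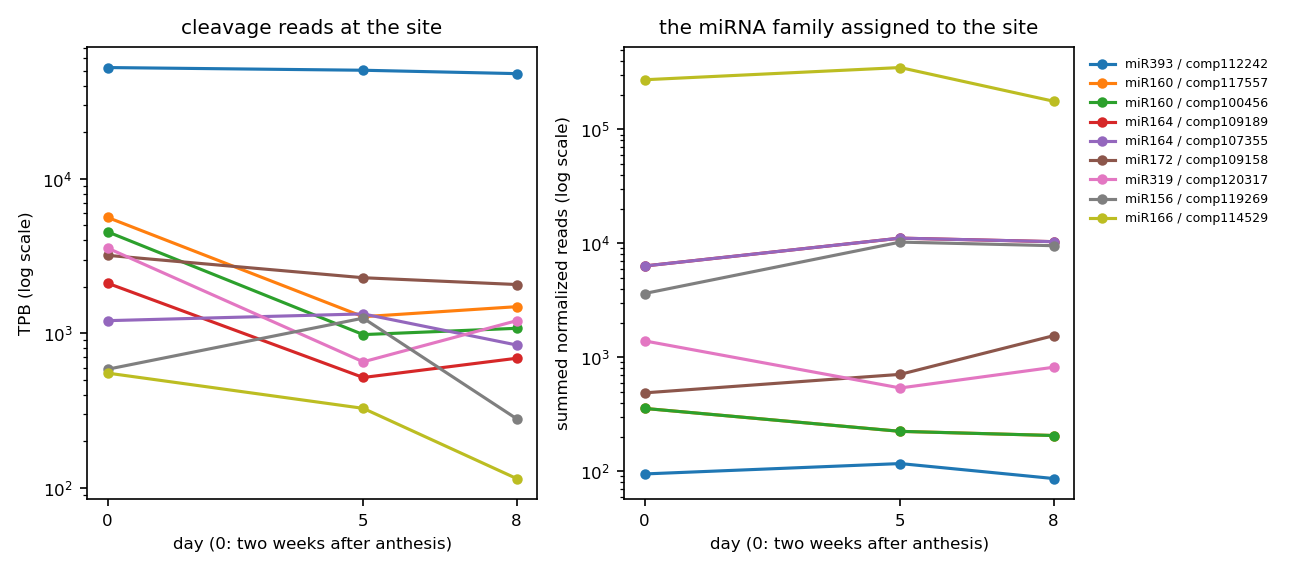
Scaled cleavage reads (TPB, log axis, left) at 9 sites and summed normalized reads of the miRNA family assigned to each (log axis, right) against day, 1 library a day. The miR393 site lies between 47892 and 52429 TPB, while both miR160 sites are highest in CK0, at 5623 and 4538 TPB. On the right, 2 sites of 1 family share a line.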

How the data were processed

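Small RNA, degradome and transcriptome libraries of water-injected receptacles were used, 1 pooled library for each assay and day. Small RNA reads (TruSeq kit, Illumina) were deposited by the authors as an estimated count per arm and precursor, in which reads with several places are split, and as a normalized score, the count times 1 factor for each library. The labels, file headers and paper name neither the rule for that factor nor the aligner, genome build or miRBase release. The study's paper describes the transcriptome alone, for which reads were assembled with Trinity and TGICL and the authors deposited RPKM. The authors deposited a count of degradome reads for each predicted cleavage site and a scaled score (TPB).

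Values of a sequence listed on several rows were summed, because 153 of 163 such sequences summed to whole reads within 0.01, against 49 in their largest row. Of the rows, 7 were empty. The ratio of (normalized reads + 1) was called at 2-fold with a minimum of 10 normalized reads in 1 of the libraries compared. Intervals are exact (Clopper-Pearson, 95%) from rounded raw reads, and PCR reads are not independent molecules. Members and lists were chosen with earlier results of these data known. Sequences were named as the 10 highest by mean, the 6 largest changes in each direction and comparison with at least 50 normalized reads, the leading sequence of each listed family, up to 5 absent from a library and up to 3 on each side of the minimum. Others named were chosen after their values were seen. Arms were paired within 250 bases with at least 14 pairing bases (G:U included), with up to 3 mismatches to the genome. Alternatives are given at the end. The procedure was tested on simulated counts. Python 3.11.15, pandas, numpy, scipy and matplotlib were used. The authors' p-values and the abscisic acid and nordihydroguaiaretic acid columns were not used.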

Additional observations from a re-analysis of the deposited data

How the results depend on the processing

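The counts of sequences called were compared under 13 other settings. With a 1.5-fold rule, 98 sequences were higher and 65 lower in CK5 over CK0, 52 lower in CK8 over CK0 and 69 higher in CK8 over CK5. With a 4-fold rule, 20 were higher and 15 lower in CK5 over CK0, 17 higher in CK8 over CK0, and 22 higher and 20 lower in CK8 over CK5. With a minimum of 50 normalized reads the counts were 20 higher and 8 lower in CK5 over CK0, 24 and 6 in CK8 over CK0, and 14 and 18 in CK8 over CK5, and with no minimum 415 and 207, 364 and 212, and 227 and 286. With the raw reads of the table scaled to equal totals, 37 were higher in CK5 over CK0, 99 higher in CK8 over CK0, and 113 higher and 22 lower in CK8 over CK5. With the median log2 ratio set to 0, 68 were lower in CK5 over CK0, and with totals equal without miR166, 61. Summed by family, 35 were higher in CK8 over CK0. Without the sequences not matched to the genome, an alternative chosen after seeing the data, 14 instead of 28 were lower in CK8 than in CK0. Of 78 counts, 49 stayed within 1.5 times the reported one. For the 21 nt members the share was 50.6% of distinct sequences against 90.4%, 92.0% and 87.6% of normalized reads in CK0, CK5 and CK8, and for those beginning with T 46.6% against 90.1%, 92.9% and 85.8%. Of 880 recomputed ratios of named sequences, 19 fell below 2-fold and 53 passed it. A scaling moves all sequences alike, by at most 0.74 on the log2 scale, so no call could change sign by it. No replicate could be left out, since each day has 1 library. No paired analysis was possible because each day has 1 library and no replicate numbers. At 0.738 to 1.43 normalized reads a raw read, changes of members near the minimum rest on 7 to 14 reads.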

Other observations

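Sites assigned to miR828, a family known for acting on MYB transcription factors and below the minimum in all 3 small RNA libraries, had cleavage reads in the control degradome. At comp82781_c1_seq1, 3 reads were found in CK0, none in CK5 and 241 in CK8, and its transcript had 0.105, 0 and 3.27 RPKM. At comp93532_c0_seq2, 92, 14 and 28 reads were found. mdm-miR828a itself had 1, 1 and 3 raw reads and aly-miR828-3p_1ss5GA had 2, 2 and 8.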
